A study of Homo sapiens with 4 samples.

Results

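Small nucleolar RNA (snoRNA) host genes carry snoRNAs in their introns, and their spliced RNA is mostly noncoding. The 10 host genes described here are GAS5, SNHG1, SNHG5, SNHG6, SNHG7, SNHG8, SNHG12, SNHG15, SNHG16 and ZFAS1, taken by symbol from a table of 58735 human genes. All 10 were among the 14166 genes that passed the filter on low counts. They were measured by RNA-seq in SUP-M2, an established human line of anaplastic large cell lymphoma, a T cell lymphoma, known to carry the NPM1-ALK fusion kinase. Of the 4 libraries, 2 came from cells with a short hairpin RNA against GOLM1, a Golgi membrane protein (shGOLM1), and 2 from cells with a scrambled hairpin (shscramble). The titles name hairpins, whereas the genotype field reads GOLM1 knockout, and the labels do not give the hairpin sequence or say whether both shGOLM1 libraries used the same one. Separate cultures are not stated for the replicates, and the p-values below rest on how far these libraries lie apart, a spread that may be technical.

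When a host gene is transcribed, splicing frees its introns, and the snoRNAs inside them are trimmed out and packed into ribonucleoproteins. C/D box snoRNAs guide 2'-O-methylation of ribosomal RNA, and H/ACA box snoRNAs guide its pseudouridylation. The spliced exons of many hosts start with a terminal oligopyrimidine tract like that of ribosomal protein mRNAs, are bound by ribosomes despite holding no long reading frame, and are then removed by nonsense-mediated decay, a pathway that needs translation. Host RNAs such as GAS5, first found in growth-arrested mouse cells, are therefore known to accumulate when translation slows.

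Sequences around the annotated starts are shown because a pyrimidine tract at the start is the feature through which host RNAs are tied to translation. RefSeq promoter windows on GRCh38.p14 (250 bases before to 50 after the start) were at hand for 8 of the 10 genes, and SNHG6 and SNHG15 had no entry. The lines give the 40 bases before the start and the first 20 after it, 5′ to 3′ on the gene's strand. Capitals mark a run of at least 5 pyrimidines opening with C within 5 bases of the start and, before it, the letters TATAA. The windows lie at chr6:85678714-85678773 (minus strand) for SNHG5, chr20:49278602-49278661 (plus) for ZFAS1, chr1:28581854-28581913 (minus) for SNHG12, chr4:118278722-118278781 (plus) for SNHG8, chr9:136728165-136728224 (minus) for SNHG7 and chr17:76557724-76557783 (plus) for SNHG16.
SNHG5: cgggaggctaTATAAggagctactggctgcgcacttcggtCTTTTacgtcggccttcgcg
ZFAS1: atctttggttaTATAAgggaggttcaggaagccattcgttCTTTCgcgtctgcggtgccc
SNHG12: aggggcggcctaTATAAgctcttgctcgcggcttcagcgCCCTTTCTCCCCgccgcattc
SNHG8: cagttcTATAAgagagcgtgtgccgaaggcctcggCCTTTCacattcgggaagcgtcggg
SNHG7: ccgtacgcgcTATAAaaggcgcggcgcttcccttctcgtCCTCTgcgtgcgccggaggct
SNHG16: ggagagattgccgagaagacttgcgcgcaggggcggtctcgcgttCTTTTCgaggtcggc

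The pyrimidine run was present in these 6 of 8 windows, against 45 of 80 windows of cytosolic ribosomal protein genes and 18.1% of all 35116 windows. On the other strand the same search matched 0 of 8 host windows and 5967 of the 35116. The letters TATAA, looked for 20 to 40 bases before the start after the letters had been seen, stood in 5 of 8 host windows, 8 of 80 ribosomal protein windows and 3.77% of all windows. On the other strand TATAA matched 1 of 8 host windows and 1.59% of all windows. The letters CACGTG, read the same on both strands, were found in the SNHG7 window alone among the 8, against 7.26% of all windows. The palindromic CGCG element known from BANP binding was in 0 of 8, against 0.424% of all windows. GAS5 and SNHG1 had no run at the RefSeq start. Among GENCODE 29 transcripts, 6 of 29 of GAS5 and 1 of 25 of SNHG1 opened with such a run at their first base, against 2.41% of all 206694 transcripts. Over the 8 genes, 20 of 121 transcripts did (16.5%), with 0 of 4 for SNHG7. The first 40 bases of the GAS5-210 transcript show the run in capitals.
GAS5: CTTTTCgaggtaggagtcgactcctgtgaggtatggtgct

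Library totals ranged from 27544171 to 31972153 counts, at which a count of 0 allows up to 3 counts, or 0.0864 to 0.132 CPM (counts scaled to a fixed library size), for counting error only. GOLM1, the check of the labels, was at 69.5 ± 0.0666 CPM in shGOLM1 and 212 ± 1.05 CPM in shscramble (SD, n = 2 each). Of the 10 lymphoma markers 9 passed the filter on low counts, and they moved in both directions: 4 were above and 4 below both shscramble libraries in replicate 1 (44.5% and 45% of all genes), and 4 were above and 5 below in replicate 2 (45.9% and 48.1%). TNFRSF8 (CD30) was at 538 and 88.3 CPM in shGOLM1, against 634 and 614 CPM in shscramble. ALK was at 327 and 169.8 CPM in shGOLM1, against 339.8 and 316 CPM in shscramble. NPM1 was at 1708 and 4698 CPM in shGOLM1, against 2942 and 2691 CPM in shscramble. CD4 was at 307 and 379 CPM in shGOLM1, against 182 and 179.8 CPM in shscramble, and PRF1, which encodes perforin, at 620.1 and 145 CPM in shGOLM1, against 2.91 and 2.70 CPM in shscramble. The 10 markers summed to 6338 and 6928 CPM in shGOLM1, against 6041 and 5744 CPM in shscramble, with NPM1 the largest part in replicate 2. The 6 B cell markers summed to at most 0.658 CPM in any library, with MS4A1 and CD79B at 0 throughout. The 5 fibroblast markers summed to 1.41 and 2.19 CPM in shGOLM1 and 0.0613 and 0.361 CPM in shscramble, with COL1A2 at 0. LUM, the 1 of these 5 that passed the filter on low counts, had 32 and 39 counts in shGOLM1 and 0 and 0 in shscramble. The 6 myeloid markers summed to 310.3 and 231 CPM in shGOLM1 and 235 and 242 CPM in shscramble, nearly all of it CSF1R, and none of the 6 was at 0 throughout. Mitochondrially encoded genes took 1.95% and 0.455% of counts in shGOLM1 replicates 1 and 2, against 2.38% and 2.24% in shscramble. The shGOLM1 libraries correlated across genes at 0.873 in log2 CPM and the shscramble libraries at 0.989. In bulk RNA, fewer cells of a kind and less RNA per cell cannot be told apart.

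In the shGOLM1 libraries the host genes did not move as a group in one direction: most lay below both shscramble libraries in replicate 1 and above both in replicate 2. In replicate 1, 8 of 10 were below both shscramble libraries (45% of all genes tested were) and 1 was above both (44.5%). In replicate 2, 8 of 10 were above both (45.9%) and 2 were below both (48.1%). The switch from below both in replicate 1 to above both in replicate 2 was seen for 7 of the 10, which are SNHG1, SNHG5, SNHG6, SNHG8, SNHG12, SNHG15 and ZFAS1, against 16.4% of all genes tested. SNHG16 alone made the opposite switch (16.8% of all genes), and SNHG7 alone was below both shscramble libraries in both shGOLM1 libraries (26.5%). None was above both in both (25.2%). The 10 genes together took 0.122% and 0.393% of all counts in shGOLM1 replicates 1 and 2, against 0.176% and 0.154% in shscramble replicates 1 and 2. The mitochondrial share, lower in shGOLM1 replicate 2, and the lymphoma markers, some lower and some higher there, differ between the same libraries, and their part in the host gene levels was not tested.

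**Figure D1:**
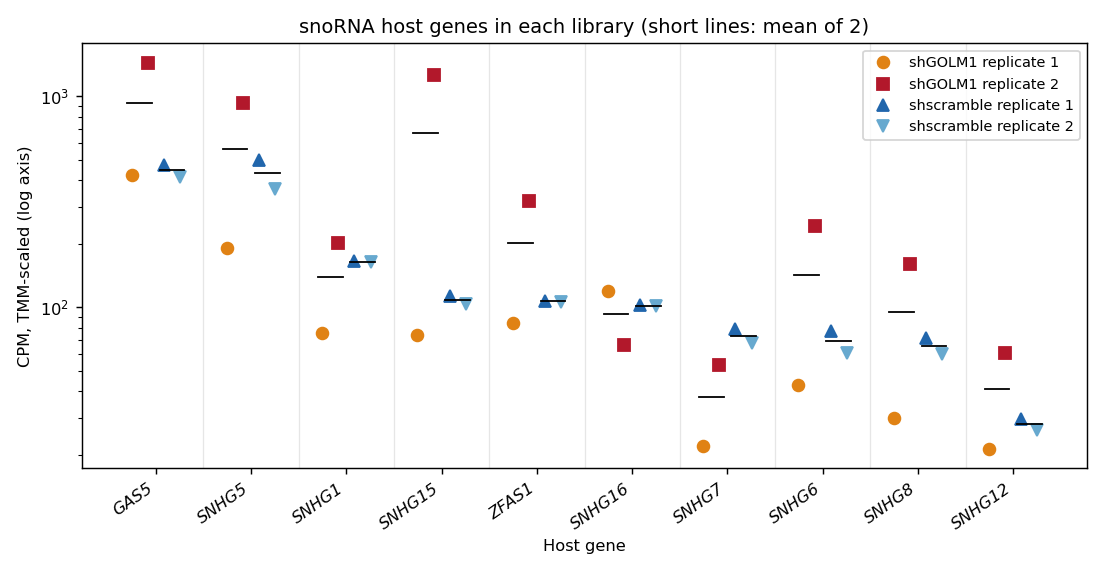
TMM-scaled CPM on a log axis (y) for each of the 10 host genes (x), with 1 point per library and short lines for the mean of each group's 2 libraries. SNHG15 reaches 1262 CPM in shGOLM1 replicate 2, against 74.2 CPM in replicate 1 and 113 and 103 CPM in shscramble, while SNHG16 alone is lower in replicate 2 than in replicate 1.

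With all 4 libraries, edgeR's quasi-likelihood test called 0 of the 10 host genes at an adjusted p under 0.05, and it called 0% of all genes tested in either direction. GOLM1 itself did not pass this edgeR test, with a log2 fold change of -1.61 (SE 0.27) and an adjusted p of 0.42. Not passing it is therefore no sign that a gene was unchanged. At an unadjusted p under 0.05 the edgeR test passed 0 of the 10 host genes, where 8.2% of all genes passed as higher and 3.58% as lower. DESeq2 called 0 of the 10, against 3.46% of all genes called higher and 0.346% called lower, and at an unadjusted p under 0.05 it passed 1 of the 10, SNHG15, as higher, where 10.6% of all genes passed as higher and 3.34% as lower. limma-voom called 0 of the 10 and 0% of all genes, and at an unadjusted p under 0.05 it passed 0 of the 10, where 6.48% of all genes passed as higher and 4.18% as lower. The median log2 fold change of the 10 was 0.54, ranging from -0.96 for SNHG7 to 2.62 for SNHG15, and that of all genes tested was 0.05. A mean over the shGOLM1 pair covers libraries that lie beyond both shscramble libraries on opposite sides for 8 of the 10, so values are given per library below.

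Each shGOLM1 library was also set against the shscramble pair alone in edgeR, which assumes that the single library varies like that pair and compares libraries, not conditions. Replicate 1 had 8 of the 10 called lower (24.1% of 15106 genes tested there) and 0 called higher (20.4%). Replicate 2 had 8 called higher (33.3% of 15268 genes tested) and 2 called lower (34.1%). Over the 10, log2 CPM minus the shscramble mean had a median of -0.61 in replicate 1 and 1.21 in replicate 2, where all genes tested had 0.00 and -0.04. Replicate 2 was above replicate 1 for 9 of 10, against 48.9% of all genes.

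**Figure D2:**
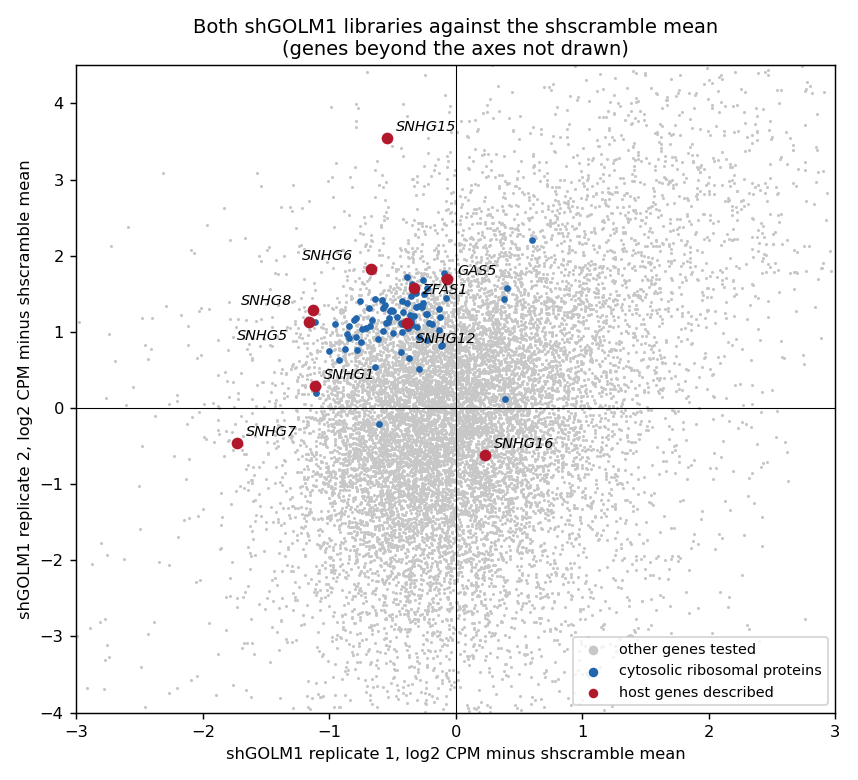
Log2 CPM minus the mean of the shscramble pair, for shGOLM1 replicate 1 (x) and shGOLM1 replicate 2 (y), with 1 point per gene tested. Of the host genes (large red points), 8 lie above 0 in replicate 2, all of them left of 0 in replicate 1, in the region where most cytosolic ribosomal protein genes (blue points) also lie; genes beyond the axes are not drawn.

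Among the hosts of C/D box snoRNAs, GAS5 (chromosome 1, 173863900 to 173868882, GRCh38), a host of many such snoRNAs whose RNA is also known to bind the glucocorticoid receptor, had the most counts of the 10 in 3 of the 4 libraries. It stood at 423 and 1445 CPM in shGOLM1, against 475 and 416 CPM in shscramble. Replicate 1 thus lay between the shscramble libraries, and replicate 2 lay 3.24-fold above their mean. The 4-library log2 fold change was 1.07 (SE 0.67), with an edgeR adjusted p of 0.55. Taken alone, replicate 1 did not pass against the shscramble pair in edgeR (log2 fold change -0.09, adjusted p 0.57), while replicate 2 was higher (1.65, adjusted p 3.94e-09).

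SNHG1 (chromosome 11, 62851988 to 62855914), which hosts SNORD22, SNORD25 and others of that kind, was at 75.8 and 201 CPM in shGOLM1, against 165 and 164 CPM in shscramble. The shscramble libraries were nearly equal, replicate 1 was 2.17-fold lower and replicate 2 was 1.22-fold higher. The replicate 2 excess depends on the scaling: with library totals alone SNHG1 was at 167 CPM in replicate 2, below the 169 and 172 CPM in shscramble. Its 4-library log2 fold change was -0.25 (SE 0.54), with an edgeR adjusted p of 0.86, the sign coming from replicate 1.

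SNHG5 (chromosome 6, 85660950 to 85678748), the host of the SNORD50 snoRNAs, was at 190.2 and 934 CPM in shGOLM1, against 501 and 362 CPM in shscramble. Its shscramble libraries were the furthest apart of the 10 genes, by 1.38-fold, yet both shGOLM1 libraries lay outside them. SNHG6 (chromosome 8, 66921684 to 66926398), the host of SNORD87, was at 43.0 and 243 CPM in shGOLM1, against 77.6 and 60.6 CPM in shscramble. Replicate 2 was 5.64-fold above replicate 1 for SNHG6 and 4.91-fold for SNHG5. Neither passed the 4-library test, with log2 fold changes of 1.05 (SE 0.85) for SNHG6 and 0.38 (SE 0.81) for SNHG5 and edgeR adjusted p of 0.62 for SNHG6 and 0.85 for SNHG5.

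ZFAS1 (chromosome 20, 49278178 to 49295738) hosts the SNORD12 family. It was at 84.7 and 318 CPM in shGOLM1, against 107 and 106 CPM in shscramble. The shscramble libraries were nearly equal, replicate 1 was 1.26-fold lower and replicate 2 was 2.97-fold higher. The 4-library log2 fold change was 0.91 (SE 0.68), with an edgeR adjusted p of 0.60.

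SNHG16 (chromosome 17, 76557766 to 76565348), the host of the SNORD1 family, ran against the other C/D hosts. It had 119 CPM in shGOLM1 replicate 1 and 66.3 CPM in replicate 2, against 103 and 101 CPM in shscramble. Replicate 1 was higher by 1.17-fold, which did not pass edgeR's test of that library alone (adjusted p 0.13), and replicate 2 was 1.54-fold lower, which did (adjusted p 7.69e-05). Its start carries a pyrimidine run, like those of SNHG5 and ZFAS1 shown above, but no TATAA. Its 4-library log2 fold change of -0.13 (SE 0.39) had an edgeR adjusted p of 0.90.

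The hosts of H/ACA box snoRNAs were SNHG7, SNHG8 and SNHG15. SNHG15 (chromosome 7, 44983023 to 44986961), which hosts SNORA9 and makes a short-lived RNA, had the widest span of the 10. It had 2575 and 28780 counts in shGOLM1 replicates 1 and 2, against 3705 and 3443 counts in shscramble. This is 74.2 and 1262 CPM in shGOLM1, against 113 and 103 CPM in shscramble. Replicate 1 was thus the lowest library, 1.46-fold under the shscramble mean, and replicate 2 was 11.6-fold above it. The 4-library log2 fold change of 2.62 (SE 1.32) did not pass edgeR (adjusted p 0.48) or DESeq2 (adjusted p 0.13). In the authors' deposited table it is 2.60, with an adjusted p of 0.0745. Without shGOLM1 replicate 2 the log2 fold change was -0.56.

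SNHG8 (chromosome 4, 118278709 to 118279823), the host of SNORA24, was at 30.0 and 159.7 CPM in shGOLM1, against 71.9 and 59.8 CPM in shscramble. It was 2.20-fold lower in replicate 1 and 2.43-fold higher in replicate 2, and its edgeR adjusted p over 4 libraries was 0.80 (log2 fold change 0.53, SE 0.82). SNHG7 (chromosome 9, 136721366 to 136728184), the host of SNORA17A and SNORA17B, was at 22.0 and 53.3 CPM in shGOLM1, against 78.9 and 68.1 CPM in shscramble. It was the 1 host gene lower in both shGOLM1 libraries, by 3.34-fold in replicate 1 and 1.38-fold in replicate 2. With a log2 fold change of -0.96 (SE 0.51) it did not pass over 4 libraries in edgeR (adjusted p 0.49), and it passed as lower in each library alone (adjusted p 1.98e-09 in replicate 1 and 0.00223 in replicate 2).

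SNHG12 (chromosome 1, 28578538 to 28583132) hosts both kinds, among them SNORA44, SNORA61 and SNORD99. It had the lowest shscramble level in CPM of the 10. It was at 21.3 and 60.7 CPM in shGOLM1, against 29.7 and 26.2 CPM in shscramble. Replicate 1 was 1.31-fold lower and replicate 2 was 2.17-fold higher, with a 4-library log2 fold change of 0.55 (SE 0.57) and an edgeR adjusted p of 0.70.

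**Figure D3:**
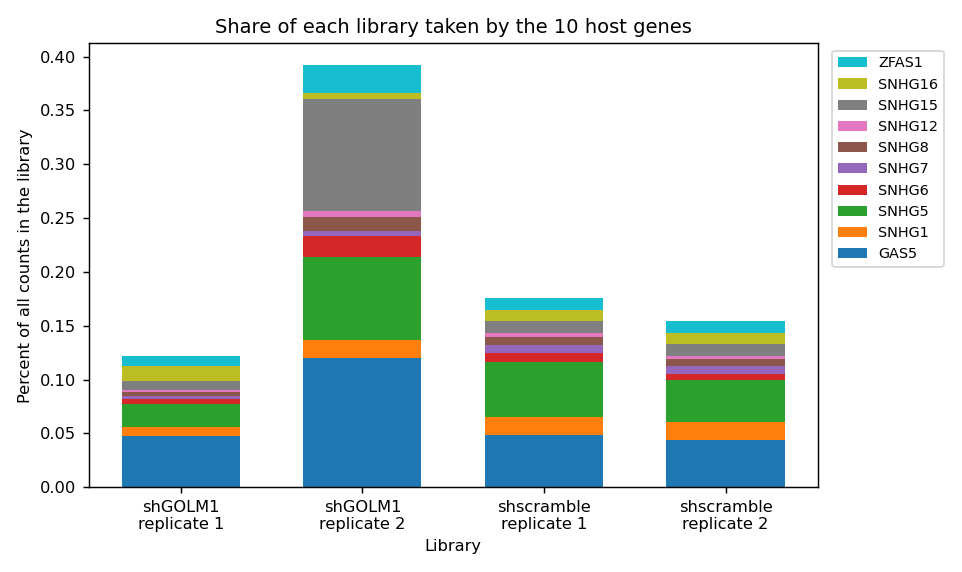
Stacked bars give the percent of all counts in each library (y, from 0) taken by the 10 host genes, with 1 bar per library (x). The bars total 0.122% and 0.393% in shGOLM1 replicates 1 and 2 and 0.176% and 0.154% in shscramble, and the SNHG15 segment grows most.

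The makeup of the host RNA also differed between libraries. GAS5 made up 39.0% and 30.5% of the counts of the 10 genes in shGOLM1 replicates 1 and 2, against 27.6% and 28.3% in shscramble. SNHG5 made up 17.6% and 19.7% in shGOLM1, against 29.1% and 24.7% in shscramble, so its share was lower in both shGOLM1 libraries although its level was on opposite sides. SNHG15 made up 6.85% and 26.6% in shGOLM1, against 6.59% and 7.05% in shscramble, so its share stood apart in replicate 2 alone. SNHG16 made up 11.03% and 1.40% in shGOLM1, against 5.95% and 6.91% in shscramble.

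Levels between genes can be compared only per length, for which the authors' FPKM values (fragments scaled to gene length and library size) were used. The deposited gene lengths run from 923 bases for SNHG8 to 5362 bases for SNHG16. That of SNHG12, 4266 bases, takes up most of its locus (28578538 to 28583132). Such lengths may exceed that of the spliced RNA, so the order below depends on them. In shscramble, SNHG5 and GAS5 came first at 152 ± 34.7 and 122 ± 11.6 FPKM (SD, n = 2), and their libraries overlap only between themselves. SNHG8 followed at 70.6 ± 9.17, SNHG6 at 54.9 ± 9.59, ZFAS1 at 47.1 ± 0.266 and SNHG1 at 43.4 ± 0.257 FPKM. SNHG15 at 29.5 ± 1.94, SNHG16 at 18.8 ± 0.162, SNHG7 at 16.7 ± 1.75 and SNHG12 at 6.49 ± 0.568 FPKM closed the order. From GAS5 down, each gene's lower shscramble library was above the next gene's higher one. In shGOLM1 every neighbouring pair in the order overlapped, since the libraries of a gene spread so widely: GAS5 was at 113 and 387 FPKM, and SNHG15 at 19.8 and 337 FPKM. In replicate 1 only SNHG12, SNHG7 and SNHG1 were below SNHG15, and in replicate 2 only GAS5 was above it.

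The snoRNAs themselves were hardly counted. Inside 9 of the hosts the table holds 26 snoRNA genes on the host strand, which had 38 and 57 counts in all in shGOLM1, against 40 and 39 in shscramble, while the 10 hosts had 37603 and 108136 counts in shGOLM1 and 56238 and 48833 in shscramble. For 22 of the 26 the count was 0 in all 4 libraries, and each of these 22 overlaps at least 1 annotated exon of its host in GENCODE 29. The other 4 overlap no host exon and were the only ones with counts. How reads on overlapping genes were assigned was not given in the sources used here, so a 0 there cannot be read as absence of the snoRNA.

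The 4 snoRNA genes with counts are all of the C/D kind, and their sequences are shown because only these loci had reads counted. Capitals mark the C box letters TGATGA within the first 20 bases and the D box letters CTGA within the last 20, on the snoRNA's own strand. Both were present in 3 of the 4, and in 64.9% of 288 SNORD transcripts of GENCODE 29. No search of the other strand was made, since the boxes are read in the RNA. They lie on GRCh38 at chr20:49280319-49280409 (SNORD12B, plus), chr20:49278940-49279028 (SNORD12C, plus), chr17:76561109-76561192 (SNORD1B, plus) and chr1:28578749-28578822 (SNORD99, minus).
SNORD12B: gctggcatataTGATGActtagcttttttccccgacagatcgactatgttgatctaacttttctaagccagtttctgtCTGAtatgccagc
SNORD12C: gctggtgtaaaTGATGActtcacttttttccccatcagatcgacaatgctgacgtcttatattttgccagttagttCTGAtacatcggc
SNORD1B: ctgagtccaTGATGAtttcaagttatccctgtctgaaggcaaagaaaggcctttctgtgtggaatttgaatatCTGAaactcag
SNORD99: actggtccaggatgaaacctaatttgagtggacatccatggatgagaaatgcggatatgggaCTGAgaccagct

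SNORD99, inside SNHG12, had 19 and 43 counts in shGOLM1, against 10 and 10 in shscramble. Its libraries do not overlap, but its log2 fold change of 1.98 (SE 0.88) did not pass edgeR (adjusted p 0.45). SNORD12C, inside ZFAS1, had 7 and 0 counts in shGOLM1, against 14 and 14 in shscramble, while SNORD12B in the same host had 1 and 9 in shGOLM1, against 16 and 9 in shscramble. SNORD1B, inside SNHG16, had 11 and 5 counts in shGOLM1, against 0 and 6 in shscramble. In shGOLM1 replicate 2, where ZFAS1 itself was highest, neither SNORD12C nor SNORD12B exceeded its higher shscramble library. Reads inside a host intron can come from unspliced host RNA or from the snoRNA, and these mRNA-Seq counts do not tell them apart. They are therefore no measure of snoRNA output.

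Of the host genes, 3 begin beside a protein-coding gene on the opposite strand, and each partner lay differently from its host in at least 1 shGOLM1 library. SLC3A2, the heavy chain of amino acid transporters, starts 188 bases from SNHG1 and does not overlap it. It was at 231 and 1378 CPM in shGOLM1, against 187 and 178 CPM in shscramble, above both in both libraries, while SNHG1 was below both in replicate 1. ZNFX1, a helicase-like RNA-binding protein, overlaps ZFAS1 by 249 bases at their starts and was at 84.5 and 13.8 CPM in shGOLM1, against 47.0 and 51.4 CPM in shscramble. ZNFX1 and ZFAS1 therefore lay on opposite sides of shscramble in each shGOLM1 library. ZBTB37, a zinc finger protein gene overlapping GAS5 by 801 bases, was at 23.2 and 19.4 CPM in shGOLM1, against 6.89 and 9.05 CPM in shscramble, above both in both libraries. TRNAU1AP, which reaches 8 bases into the end of SNHG12, was at 9.39 and 15.8 CPM in shGOLM1, against 17.8 and 15.4 CPM in shscramble. None of the 4 passed edgeR over 4 libraries, with adjusted p of 0.42 for ZBTB37, 0.44 for SLC3A2, 0.70 for TRNAU1AP and 1.00 for ZNFX1. The strand setting of the counting is not given, so reads where GAS5, ZFAS1 and SNHG12 overlap these genes are not assigned with certainty.

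**Figure D4:**
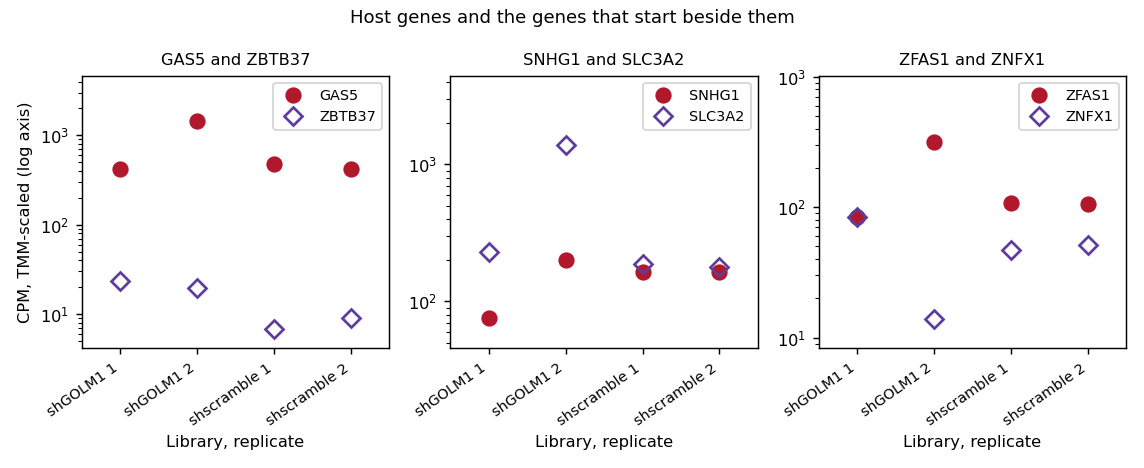
TMM-scaled CPM on a log axis (y) in each library (x) for 3 host genes (filled circles) and the gene that starts beside each (open diamonds). ZFAS1 and ZNFX1 diverge in shGOLM1 replicate 2, at 318 and 13.8 CPM, and SLC3A2 reaches 1378 CPM there while SNHG1 is at 201 CPM.

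The host genes were set beside lists of related genes, chosen with earlier results of these data known, and no gene of these lists passed edgeR over 4 libraries. Cytosolic ribosomal protein mRNAs are known for a pyrimidine tract at the start, and the run searched for above was in 45 of 80 of their windows. Any link between the tract and the levels was not tested. Cytosolic ribosomal protein genes showed the same switch as most of the 10: 71 of 81 tested were below both shscramble libraries in replicate 1 and above both in replicate 2 (16.4% of all genes). Log2 CPM minus the shscramble mean had a median over them of -0.42 in replicate 1 and 1.14 in replicate 2, beside -0.61 and 1.21 for the 10 host genes. By mean level the first 4 were RPLP0, RPS2, RPS4X and RPL4. RPLP0, of the ribosomal stalk, was at 3905 and 8517 CPM in shGOLM1, against 4915 and 4263 CPM in shscramble. RPS2 was at 2745 and 7444 CPM in shGOLM1, against 3835 and 3191 CPM in shscramble. RPS4X was at 2489 and 7498 CPM in shGOLM1, against 3229 and 2783 CPM in shscramble, and RPL4 at 2533 and 6547 CPM in shGOLM1, against 3249.6 and 3031 CPM in shscramble. Each of these was lowest in shGOLM1 replicate 1 and highest in replicate 2, as were SNHG5 and ZFAS1. Reads of ribosomal protein genes can be shared with their pseudogenes, so single members are uncertain.

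Of 15 other noncoding host genes tested, 3 made the switch, near the share of all genes (16.4%). In both shGOLM1 libraries 6 were below both shscramble libraries (26.5% of all genes) and 2 above both (25.2%). The list's median log2 differences were -0.53 in replicate 1 and -0.65 in replicate 2. Of the 15, 11 were below both shscramble libraries in replicate 1 (45% of all genes) and 8 in replicate 2 (48.1%), the second near the share of all genes. LRRC75A-AS1 (now SNHG29) had the highest mean of them, at 792 and 1488 CPM in shGOLM1, against 773 and 693 CPM in shscramble. DANCR was lower in both shGOLM1 libraries, at 100.3 and 58.9 CPM, against 223 and 199 CPM in shscramble. SNHG3 was at 77.7 and 198 CPM in shGOLM1, against 99.2 and 105 CPM in shscramble, and C6orf48 (now SNHG32) at 72.8 and 163 CPM in shGOLM1, against 105 and 79.1 CPM in shscramble. SNHG3 and C6orf48 thus had the order of the 10 genes' majority, and DANCR had that of SNHG7.

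Most protein-coding snoRNA hosts outside the ribosomal proteins were lower in both shGOLM1 libraries. Of 20, 13 were below both shscramble libraries in both (26.5% of all genes) and 2 above both (25.2%). In replicate 1, 16 were below both shscramble libraries (45%) and 3 above both (44.5%). In replicate 2, 14 were below both (48.1%) and 6 above both (45.9%). Medians were -0.49 in replicate 1 and -1.28 in replicate 2. By mean level the first 4 were EEF2, HSPA8, RACK1 and TPT1. TPT1, a translationally controlled protein, was at 1100.1 and 5345 CPM in shGOLM1, against 1583 and 1447 CPM in shscramble. RACK1, a ribosome-bound scaffold, was at 2855 and 6956 CPM in shGOLM1, against 2571 and 2436 CPM in shscramble, and elongation factor EEF2 at 7799.7 and 10068 CPM in shGOLM1, against 5964 and 5863 CPM in shscramble. The chaperone gene HSPA8 was at 4435 and 3150.4 CPM in shGOLM1, against 5804 and 5815 CPM in shscramble. RACK1 and EEF2 were thus above both shscramble libraries in both shGOLM1 libraries, and HSPA8 below both.

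RNA of the core and assembly factors of snoRNA-protein particles was lower in both shGOLM1 libraries more often than not. Of these 18 genes, 13 were below both shscramble libraries in both shGOLM1 libraries (26.5% of all genes) and 0 above both. NOP56, NOP58 and DKC1 also stand in the list of protein-coding hosts. NOP56 and NOP58, core proteins of C/D particles, were both below shscramble throughout. NOP56 was at 223 and 85.2 CPM in shGOLM1, against 451 and 425 CPM in shscramble, and NOP58 at 149.98 and 89.0 CPM in shGOLM1, against 301 and 293 CPM in shscramble. NOLC1, which escorts the particles in the nucleolus, was at 450.3 and 99.3 CPM in shGOLM1, against 719.6 and 717 CPM in shscramble. FBL, the methyltransferase fibrillarin, was at 209 and 402 CPM in shGOLM1, against 335 and 300.4 CPM in shscramble, the order of the host genes' majority. The 18 had median log2 differences of -0.81 in replicate 1 and -0.90 in replicate 2, so in replicate 2 they lay opposite to most of the 10 host genes.

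Factors of nonsense-mediated decay, which clears host RNAs, went both ways, with more of them lower than higher. In replicate 1, 15 of 24 were below both shscramble libraries and 7 above both (45% and 44.5% of all genes). In replicate 2, 13 were below both and 9 above both (48.1% and 45.9%). Of 24, 3 were above both and 9 below both shscramble libraries in both shGOLM1 libraries (25.2% and 26.5% of all genes), with medians of -0.21 and -0.37 in replicates 1 and 2. By mean level the first 4 were the release factor ETF1, the junction protein EIF4A3, the release factor GSPT1 and the junction protein RNPS1. ETF1 was at 425 and 151 CPM in shGOLM1, against 476 and 485 CPM in shscramble, and GSPT1 at 292 and 137 CPM in shGOLM1, against 389.7 and 397 CPM in shscramble. EIF4A3 was at 202 and 399 CPM in shGOLM1, against 369 and 339.9 CPM in shscramble, and RNPS1 at 209 and 260.1 CPM in shGOLM1, against 355 and 349 CPM in shscramble. Both release factors and RNPS1 were below both shscramble libraries in each shGOLM1 library, and EIF4A3 switched sides.

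**Figure D5:**
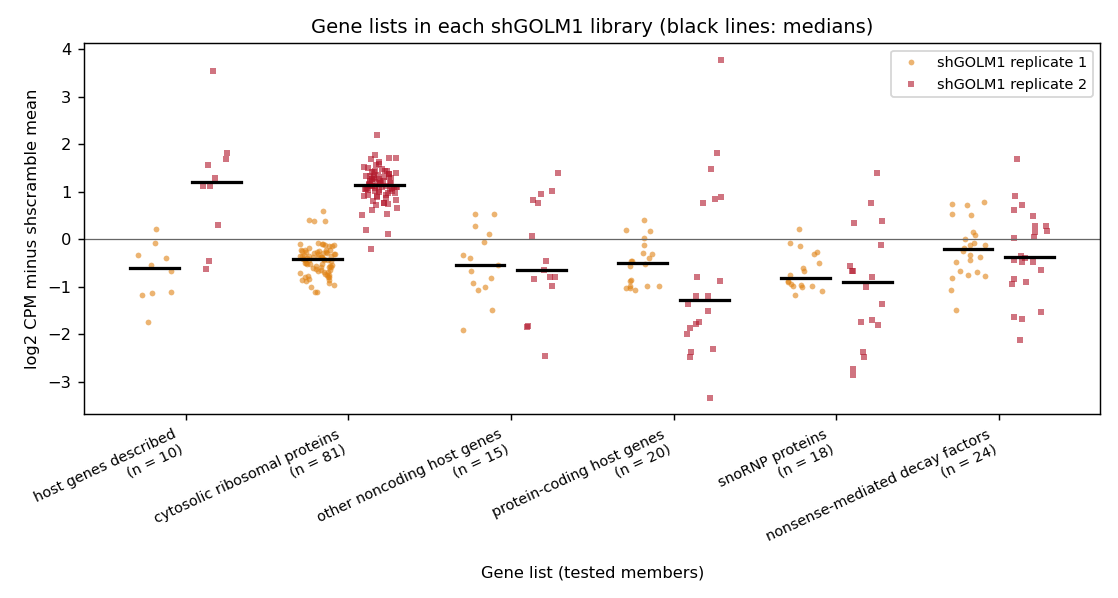
Log2 CPM minus the shscramble mean (y) for the tested genes of each list (x), with shGOLM1 replicate 1 as circles, replicate 2 as squares and black lines for medians. The 10 host genes and the 81 ribosomal protein genes have medians below 0 in replicate 1 and above 0 in replicate 2, at 1.21 and 1.14, while the other 4 lists have medians below 0 in both.

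The 10 genes differed in how near they lay to their own median pattern, measured as the Euclidean distance between centred log2 CPM values over the 4 libraries. SNHG8, at 0.27, and SNHG5, at 0.33, were nearest, and SNHG7, SNHG15 and SNHG16 were furthest, at 1.48, 1.86 and 2.16. Of 8630 other genes with a mean of at least 10 CPM, 0.637% were nearer to the median pattern than SNHG8 and 68.4% were nearer than SNHG16. The nearest other genes were CHMP5, ING1, CFDP1, RPL22P1 and RAB38, at distances of 0.08 to 0.10. CHMP5, a subunit of the membrane-remodelling ESCRT-III complex, was at 25.9 and 118 CPM in shGOLM1, against 51.2 and 45.0 CPM in shscramble. RPL22P1, a processed pseudogene of a ribosomal protein, was at 5.96 and 27.6 CPM in shGOLM1, against 12.5 and 9.71 CPM in shscramble. With 4 libraries such likeness is a description only.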

How the data were processed

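Per the labels' protocols, RNA was purified on RNeasy columns and libraries were built with the SMARTER mRNA-Seq kit. Aligner, counter and strand setting were not given in the sources used here. Mouse builds are listed in the submitters' processing notes, but all 58735 gene identifiers and coordinates equal those of GENCODE 29 (human, GRCh38), which also replaced 27 altered symbols. The authors deposited raw counts per gene and library, FPKM values, a mean signal per group, and the authors' log2 fold change and p-values, whose tool is not named. FPKM was used for levels between genes and the counts for all else.

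CPM values use totals scaled by TMM, and log2 CPM a prior count of 2. Groups were tested by edgeR's quasi-likelihood method (edgeR 4.0.16, R 4.3.3) with filterByExpr and no covariate, two-sided, with Benjamini-Hochberg adjustment over 14166 genes and a threshold of 0.05. Alternatives were other scalings and filters, a block for the replicate number, leaving out each library, DESeq2 1.42.0 and limma-voom (limma 3.58.1). The procedure was also run on simulated counts with known changes, where a set recovery was required only of edgeR at the lower dispersion used. That dispersion was not matched to the spread of these libraries, so the run does not show what the test could find here. The members and lists were chosen with earlier results of these data known, and the TATAA search, the transcript starts and the host genes' overlap under other scalings were added after the data were seen. From each of the 5 comparison lists the 4 genes with the highest mean CPM are named, plus genes overlapping a host or starting within 2000 bases of it with a mean of at least 1 CPM, and snoRNA genes inside a host with at least 10 counts. The cell type markers named were chosen after their values were seen. RefSeq sequences are of GRCh38.p14. Figures used matplotlib 3.10.9.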

Additional observations from a re-analysis of the deposited data

How the results depend on the processing

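The call of 0 host genes held under other scalings (DESeq2-type size factors, library totals alone), other filters (none, at least 5 CPM in 2 libraries), the replicate block, DESeq2, limma-voom and without either shscramble library, with adjusted p from 0.127 to 1.00. With a single shGOLM1 library kept, replicate 2 gave 8 higher and 2 lower and replicate 1 gave 8 lower. Over all genes, edgeR's 0 higher and 0 lower became 175 and 17 with no filter, and 490 and 49 in DESeq2. Leaving out 1 library gave 16 to 5078 higher and 4 to 5212 lower. The cause was not tested, except that fits without an shGOLM1 library take their spread from the shscramble pair alone.

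The log2 fold change changed sign for 8 of 10 host genes without shGOLM1 replicate 2 and for SNHG1 without shGOLM1 replicate 1. Leaving out 1 library at a time, it ran from -0.0927 to 1.65 for GAS5, -1.13 to 0.25 for SNHG1, -1.20 to 1.07 for SNHG5, -0.70 to 1.76 for SNHG6, -1.76 to -0.51 for SNHG7, -1.15 to 1.23 for SNHG8, -0.41 to 1.07 for SNHG12, -0.56 to 3.49 for SNHG15, -0.67 to 0.21 for SNHG16 and -0.35 to 1.53 for ZFAS1. The median of the 10 was 1.15 without shGOLM1 replicate 1 and -0.63 without replicate 2, against 0.54 with all 4 libraries. It was 0.32 on library totals alone, 0.22 with the replicate block and 0.18 in limma-voom. With the block and in limma-voom SNHG15, at 2.62 in the fit reported, was at 1.5 and 1.58, and SNHG8, at 0.53, was at 0.08 and 0.03. On library totals alone, 7 host genes were above both shscramble libraries in replicate 2 and 3 below, and the median of all genes there was -0.37. With DESeq2-type size factors, 9 were below both in replicate 1.

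With the replicate block edgeR called 169 genes higher and 34 lower, and SNHG5 was at -0.0137. Same-numbered libraries did not deviate together across genes (correlation -0.0977). With 2 libraries per group this cannot show whether they shared a culture or batch, and the labels tie the number to neither.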

Other observations

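Some lower host genes of the same family, named after their values were seen, departed from the order shown by most of the 10. SNHG4 had 107 CPM in shGOLM1 replicate 1 and 21.1 CPM in replicate 2, against 68.3 and 81.5 CPM in shscramble, the order of SNHG16. SNHG17 was at 46.0 and 36.9 CPM in shGOLM1, against 78.2 and 68.3 CPM in shscramble, lower in both as SNHG7 was. EPB41L4A-AS1 was above both shscramble libraries in both shGOLM1 libraries, at 54.8 and 118 CPM, against 50.5 and 40.4 CPM in shscramble. None of the 3 passed edgeR's test over 4 libraries, with adjusted p of 0.92 for SNHG4, 0.42 for SNHG17 and 0.48 for EPB41L4A-AS1.

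Genes annotated as snoRNAs over the whole table, 943 in number, took 0.00364% and 0.0104% of counts in shGOLM1 replicates 1 and 2, against 0.00244% and 0.00268% in shscramble. These are 1125 and 2870 counts in shGOLM1, against 779 and 847 in shscramble.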
